A study of Homo sapiens with 24 samples.

Results

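The proteins at the centre of the spliceosome were examined through the array probes of the SNRP, LSM, SF3A, SF3B and PRPF genes. A probe was a member when its gene symbol in the array's probe annotation belonged to one of these families and when its detection p-value was under 0.05 on at least 2 of the 24 arrays. The families held 63 probes of 45 genes, and 55 probes of 42 genes met the detection rule, out of 25017 probes that met it on the array as a whole. No probe of PRPF40B, SF3A1 or SNRPE met it, and neither did 1 probe each of LSM12, SF3B1 and SNRPN, so these 8 probes were not tested. Of the 55 tested probes, 48 were detected on all 24 arrays.

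The spliceosome removes introns from pre-mRNA and is assembled from small nuclear ribonucleoproteins, each a short RNA with its proteins. Sm proteins form a ring around most of these RNAs, a related ring of LSm proteins holds the U6 RNA, and another LSm ring that shares most of its subunits acts in the cytoplasm in decay of mRNA. SF3A and SF3B are parts of the U2 particle that recognise the branch site of the intron, while most PRPF proteins belong to the tri-snRNP or activate the assembled spliceosome.

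Of the cell lines, BL-41 comes from a Burkitt lymphoma, while Oci-Ly-2 and SU-DHL-4 come from diffuse large B-cell lymphomas of the germinal center type. Where 3 values follow each other without names, they are for BL-41, then SU-DHL-4, then Oci-Ly-2. Cells of each line were collected untreated at 0 h, after 4 h with 5 μM artesunate, untreated at 12 h and after 12 h with 5 μM artesunate, with 2 arrays in each of these 12 groups. Artesunate is an antimalarial drug of the artemisinin class. Both arrays of any group are technical replicates, and p-values therefore cover the variation of arrays, not of cultures, and each disease type is represented by 1 or 2 lines. There was no control at 4 h, and at that time artesunate and time in culture cannot be told apart. The labels call the controls untreated, while the study's text uses both untreated and vehicle for them. Per array, 16156 to 18171 probes were detected, the median signal was 82.6 to 111.7, and arrays of 1 group correlated at 0.986 to 0.993. Of 7 B-cell markers measured, 6 were detected on all 8 arrays of every line and PAX5 on none. None of the 4 T-cell markers was detected on all arrays of a line, and of 4 monocyte markers only LYZ was, in BL-41.

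Promoters are shown for LSM5, SF3B6 and SF3B5, 3 of the 6 genes that were called lower at 12 h, to set sequence beside the expression values. The RefSeq table (GRCh38.p14) held 46 start sites for 35 of the 42 tested genes, each as 300 bases read 5′ to 3′ from 250 bases before the start to 50 bases after it. Capitals mark CCGGAAG, the core of the ETS family motif, or its reverse complement.
LSM5, chr7:32490331-32490630, minus strand: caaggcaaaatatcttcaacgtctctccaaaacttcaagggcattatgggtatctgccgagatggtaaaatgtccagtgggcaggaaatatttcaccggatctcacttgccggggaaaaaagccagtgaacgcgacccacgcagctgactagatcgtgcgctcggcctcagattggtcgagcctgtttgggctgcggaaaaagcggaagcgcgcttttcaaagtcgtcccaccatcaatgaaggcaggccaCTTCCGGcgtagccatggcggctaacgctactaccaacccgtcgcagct
LSM5, chr7:32495234-32495533, minus strand: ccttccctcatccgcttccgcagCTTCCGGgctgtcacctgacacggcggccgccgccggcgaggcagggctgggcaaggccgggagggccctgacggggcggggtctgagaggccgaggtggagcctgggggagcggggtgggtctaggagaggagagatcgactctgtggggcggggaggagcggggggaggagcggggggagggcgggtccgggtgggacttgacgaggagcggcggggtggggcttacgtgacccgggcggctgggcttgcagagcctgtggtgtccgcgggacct
SF3B6, chr2:24076277-24076576, minus strand: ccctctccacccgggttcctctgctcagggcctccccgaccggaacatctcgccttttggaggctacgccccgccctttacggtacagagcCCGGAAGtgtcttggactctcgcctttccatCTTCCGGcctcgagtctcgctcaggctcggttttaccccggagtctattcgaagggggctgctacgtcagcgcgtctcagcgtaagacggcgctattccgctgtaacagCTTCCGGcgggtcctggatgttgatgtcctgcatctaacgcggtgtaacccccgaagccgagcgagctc
SF3B5, chr6:144095524-144095823, minus strand: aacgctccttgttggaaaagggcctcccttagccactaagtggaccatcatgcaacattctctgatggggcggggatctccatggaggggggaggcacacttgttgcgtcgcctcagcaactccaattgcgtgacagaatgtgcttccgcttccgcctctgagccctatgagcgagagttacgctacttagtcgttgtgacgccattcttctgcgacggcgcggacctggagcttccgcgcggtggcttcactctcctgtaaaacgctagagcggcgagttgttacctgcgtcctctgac
The ETS motif was found on either strand in both LSM5 promoters and at 3 places in that of SF3B6, whereas the SF3B5 promoter did not hold these letters. It was present at 18 of the 46 member start sites (39.1%), which belong to 15 genes, and at 3603 of 35116 start sites in the whole table (10.3%). GGGCGG, the GC box, was found at 47.8% of member start sites and 45% of all. GCATGCGC, a binding motif of NRF1, was found at 6.52% and 3.05%, and CACGTG, the E box, at 4.35% and 7.26%. The cyclic AMP response element TGACGTCA and the C/EBP-ATF response element TGATGCAA were found at 0 of the 46 member start sites, and at 1.85% and 0.866% of all. Both strands were searched, and none of the 6 motifs is contained in another. Start sites of 1 gene can overlap.

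After 12 h with artesunate, most core spliceosome genes did not pass the test against the 12 h control, and the members that passed it were all lower. They were LSM5 in all 3 cell lines, and in Oci-Ly-2 also LSM6, LSM3, SF3B5, SF3B6 and SNRPD1. LSM5, LSM3 and SF3B6 were each called on 1 of their 2 tested probes. No member passed the test in the upward direction. Called here means an adjusted p under 0.01 (Benjamini-Hochberg) together with a log2 fold change beyond 0.5 in either direction, from 1 limma model over all 24 arrays and 25017 probes. In BL-41, 1 member probe of 55 was called lower and 0 higher, against 0.572% and 0.939% of all probes. In SU-DHL-4, 1 was called lower and 0 higher, against 0.344% and 0.588%. In Oci-Ly-2, 6 (10.9%) were called lower and 0 higher, against 1.44% and 1.59%. For the mean change over the 3 lines, 3 (5.45%) were called lower and 0 higher, against 2.31% and 2.58% of all probes. With the cell line as the replicate, 2 (3.64%) were called lower and 0 higher, against 1.03% and 0.987%. At an unadjusted p under 0.05, 2, 1 and 2 members were higher in the 3 lines, beside 6, 10 and 13 that were lower. These 8, 11 and 15 members of 55 stand beside 14.4%, 15.8% and 19.2% of all probes at that p.

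**Figure D1:**
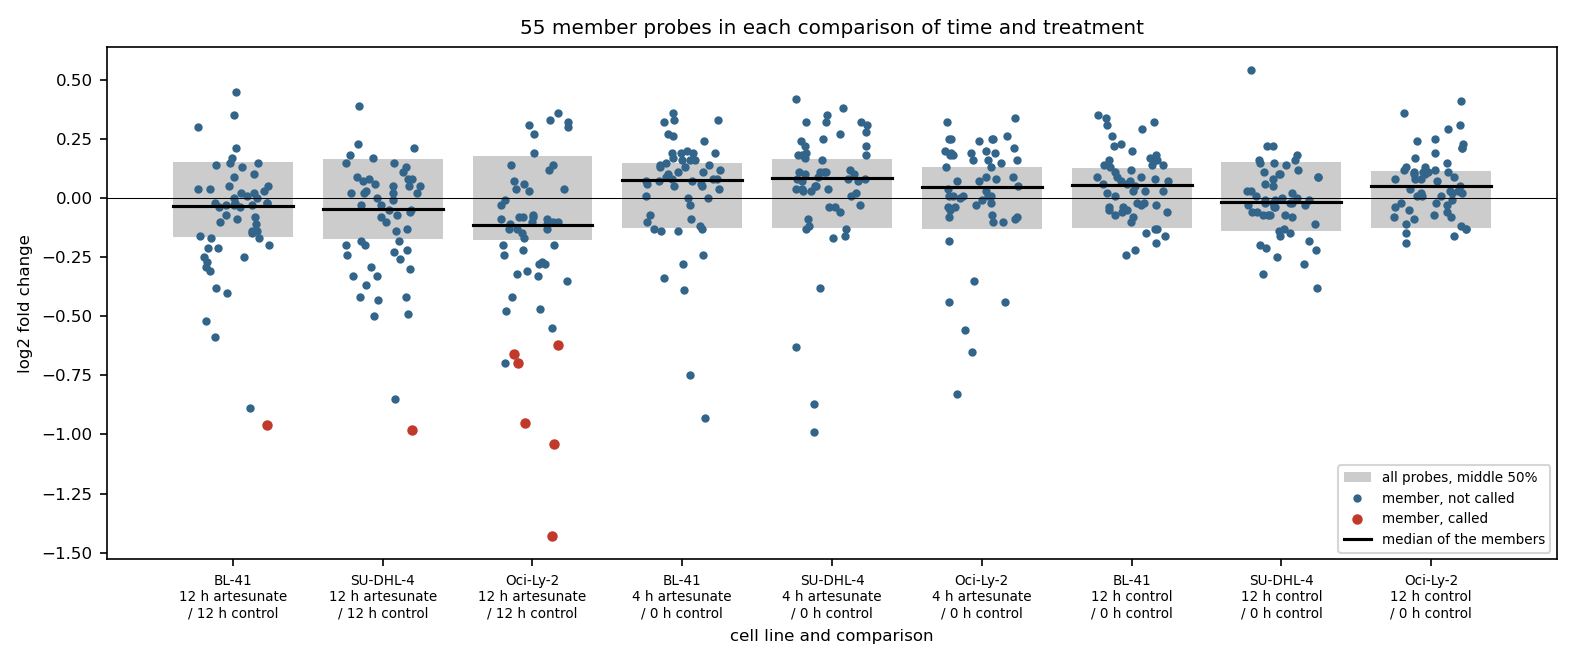
Log2 fold change (vertical axis) of the 55 member probes in each comparison of time and treatment within the 3 cell lines (horizontal axis). Points are probes, red where called, black bars are member medians and grey boxes hold the middle 50% of all tested probes; the called members, all below 0, are seen only in the 12 h artesunate comparisons.

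The median change of the 55 members at 12 h was -0.0329, -0.0468 and -0.114 on the log2 scale, against medians of -0.0017, -0.000209 and 0.00234 over all probes. Below 0 were 35, 31 and 40 of the 55 members, against 50.3%, 50% and 49.6% of all probes. Both artesunate arrays lay below both 12 h control arrays in each of the 3 lines for 9 members (16.4%), against 6.15% of all probes: LSM3, LSM5, LSM6, LSM12, SF3B4, SF3B6, SNRPD1, SNRPD3 and PRPF4. The reverse held for 4 members (7.27%), LSM4, LSM14A, PRPF19 and SF3B2, against 6.17% of all probes. LSM3, LSM5, LSM12 and SF3B6 each had another tested probe that was not lower in every line. With artesunate the other LSM12 probe, ILMN_1734428, overlapped in BL-41, was higher in SU-DHL-4 and was lower in Oci-Ly-2.

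LSM6, a subunit shared by both LSm rings, had the largest 12 h change of the 55 members, in Oci-Ly-2. There its log2 signal was 6.42 and 6.41 at 0 h, 5.72 and 5.99 after 4 h with artesunate, 6.45 and 6.68 in the 12 h control and 4.93 and 5.34 after 12 h with artesunate. In BL-41 it was 6.43 and 6.44, then 5.32 and 5.69, 6.16 and 6.50, and 5.14 and 5.75, in the same order. In SU-DHL-4 the values were 6.13 and 6.66, 5.61 and 5.43, 6.21 and 5.83, and 5.17 and 5.17. Within each line, all 4 arrays with artesunate were below all 4 control arrays. How many of all probes show this pattern was not counted. At 12 h LSM6 fell by 1.43 (SE 0.22, 2.69-fold lower, adjusted p = 0.00038, limma) in Oci-Ly-2. The change was -0.89 (adjusted p = 0.0257) in BL-41 and -0.85 (adjusted p = 0.037) in SU-DHL-4, which did not pass. Over the 3 lines it fell by 1.06 (SE 0.13, adjusted p = 7.36e-06), and by the same value with the cell line as the replicate (adjusted p = 0.0034). With the deposited processed values in place of background-corrected ones, the LSM6 changes were -0.38, -0.33 and -0.61, of which the last was called, and their mean of -0.44 was under the fold threshold. The mean over the lines was called in all 12 fits that left out 1 array. The Oci-Ly-2 call was lost without artesunate replicate 1 (adjusted p = 0.0111) or control replicate 3 (adjusted p = 0.0103), and with the cell line as the replicate the call was lost without Oci-Ly-2 (adjusted p = 0.0196).

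LSM5, another subunit of both rings, was measured by 2 probes of the same reference transcript, and they differed. On ILMN_2116556 the 12 h control arrays of BL-41 read 7.42 and 7.53 and the artesunate arrays 6.44 and 6.58. The values were 6.81 and 7.14 against 5.83 and 6.16 in SU-DHL-4, and 7.23 and 7.53 against 6.25 and 6.43 in Oci-Ly-2. In each line the artesunate arrays were thus below the control arrays with no overlap. This probe fell by 0.96 (SE 0.18, adjusted p = 0.0038), 0.98 (adjusted p = 0.00494) and 1.04 (adjusted p = 0.00126), about 2-fold in every line. On ILMN_1737947 the changes were -0.20, -0.22 and -0.10, none of them called, and the arrays overlapped in Oci-Ly-2 and SU-DHL-4. Over the 3 lines ILMN_2116556 fell by 0.99 (SE 0.10, adjusted p = 1.77e-06), with the call kept in all 12 fits that left out 1 array, and with the cell line as the replicate the adjusted p was 0.0012, or 0.0129 without Oci-Ly-2. The call within BL-41 was lost when any 1 of its 4 arrays was left out (adjusted p 0.0257 to 0.0601). In SU-DHL-4 it was kept only without control replicate 1 and otherwise lost (adjusted p up to 0.0993 without control replicate 3), and in Oci-Ly-2 likewise (up to 0.0318 without control replicate 3). Median scaling in place of quantile normalization ended the SU-DHL-4 call (adjusted p = 0.0164). With the processed values the LSM5 changes were -0.60, -0.52 and -0.63, with a mean of -0.58, all called.

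LSM3, also in both rings, was called in Oci-Ly-2 alone, on 1 of its 2 probes. On ILMN_1719032 the Oci-Ly-2 arrays read 11.18 and 11.39 in the 12 h control and 10.54 and 10.61 with artesunate, a fall of 0.70 (SE 0.14, adjusted p = 0.00395). In the other lines the same probe gave -0.14 and -0.24, and the other probe of LSM3 gave -0.38, -0.14 and -0.33 in the 3 lines. Leaving out any 1 of the 4 Oci-Ly-2 arrays ended the call (adjusted p 0.0111 to 0.0648). Of the remaining ring subunits, LSM1, which is found only in the cytoplasmic ring, LSM8, found only in the nuclear one, LSM2, LSM4 and LSM7 were not called. LSM4 gave 0.17, 0.21 and 0.30, and LSM7 gave -0.47 (adjusted p = 0.0367) in Oci-Ly-2. The median over the 10 probes of the ring subunits was -0.154, -0.0914 and -0.214. The 6 probes of the other LSm proteins, among them LSM10 and LSM11 of the U7 particle that processes histone mRNA, lay between -0.25 and 0.23 in the 3 lines, with none called.

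**Figure D2:**
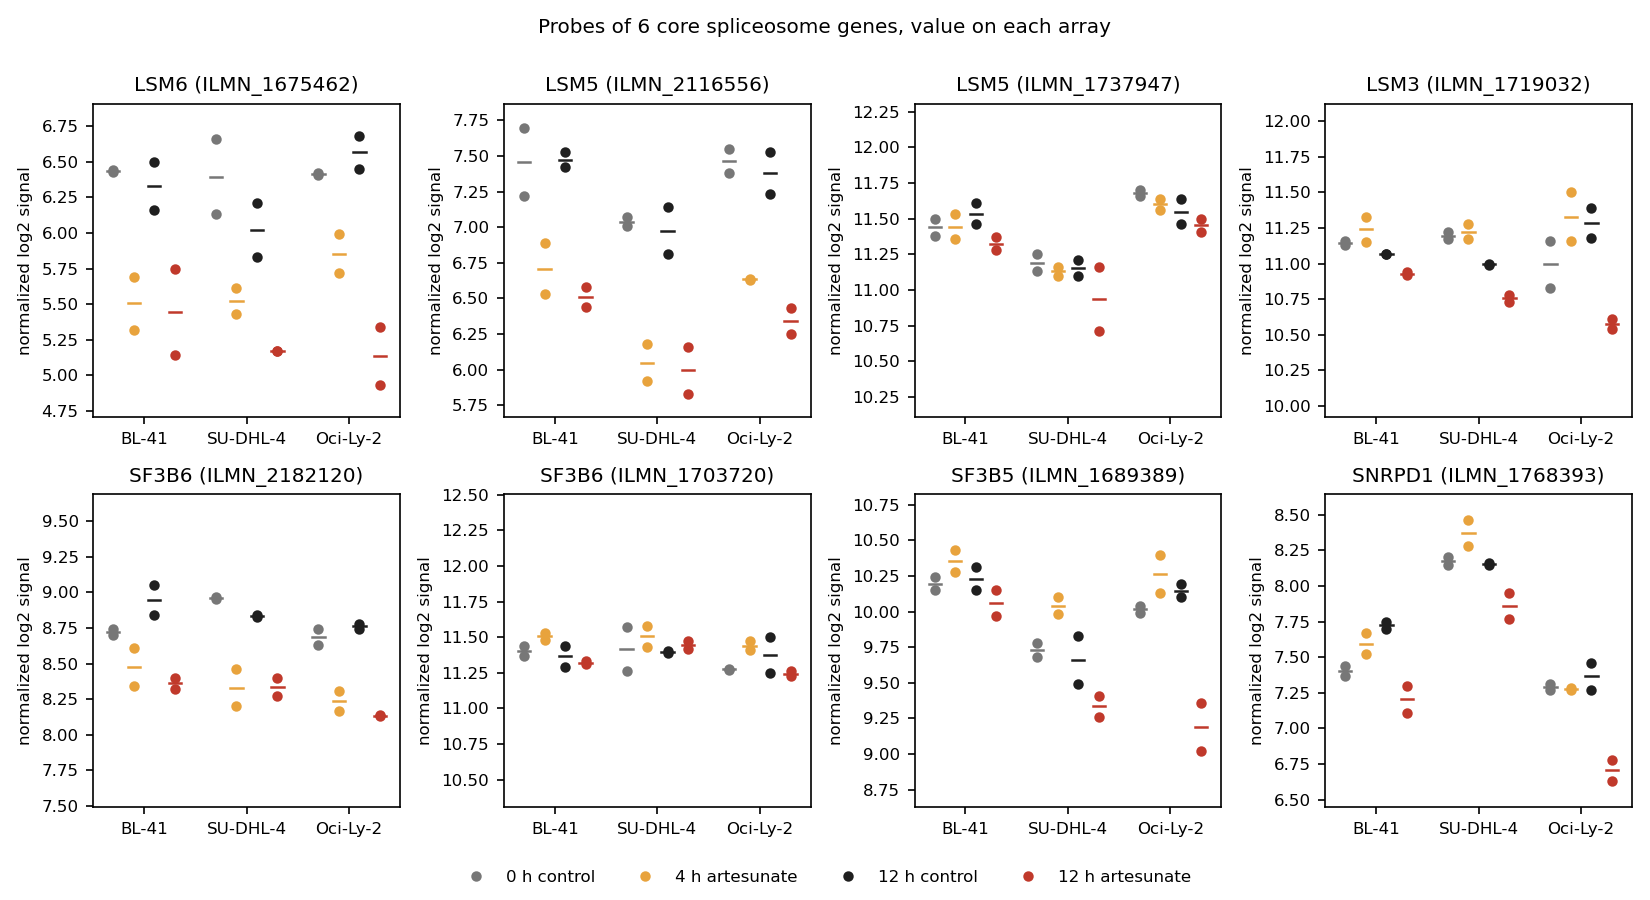
Normalized log2 signal (vertical axis) on each of the 24 arrays for 8 probes of 6 genes, by cell line (horizontal axis) and group (colour), with bars at group means of 2 arrays. LSM6, LSM5 on ILMN_2116556 and SF3B6 on ILMN_2182120 are low at both times with artesunate, while SF3B5, LSM3 and SNRPD1 are lowest at 12 h with artesunate in Oci-Ly-2.

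In the SF3B complex, SF3B5 and SF3B6, 2 small subunits, were called lower in Oci-Ly-2. SF3B5 read 10.10 and 10.19 in the 12 h control and 9.36 and 9.02 with artesunate there, a fall of 0.95 (SE 0.15, 1.94-fold lower, adjusted p = 0.000638). In SU-DHL-4 it read 9.49 and 9.83 against 9.26 and 9.41, and in BL-41 10.15 and 10.31 against 10.15 and 9.97, where the groups overlapped. Without Oci-Ly-2 control replicate 3 the adjusted p was 0.0128 and without artesunate replicate 3 it was 0.0272, which ended the call.

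SF3B6, the subunit that contacts the branch site adenosine, had 2 probes of the same reference transcript that differed. ILMN_2182120 read 8.84 and 9.05 in the 12 h control and 8.40 and 8.32 with artesunate in BL-41, 8.84 and 8.83 against 8.27 and 8.40 in SU-DHL-4, and 8.74 and 8.78 against 8.14 and 8.13 in Oci-Ly-2. The groups did not overlap in any line. The changes were -0.59 (adjusted p = 0.0172), -0.50 (adjusted p = 0.0486) and -0.62 (SE 0.13, adjusted p = 0.00656), of which the last was called, and the mean over the lines fell by 0.57 (SE 0.077, adjusted p = 3.57e-05). With the cell line as the replicate the adjusted p was 0.0105, which did not pass. ILMN_1703720 gave -0.04, 0.05 and -0.13. The Oci-Ly-2 call was lost when any 1 of its 4 arrays was left out (adjusted p 0.0361 to 0.0662) or with median scaling (adjusted p = 0.0179), and the mean over the lines was called in all 12 such fits. With the processed values the SF3B6 changes were -0.49, -0.41 and -0.51, of which the last was called, and their mean of -0.47 was under the fold threshold. No other SF3 gene was called. SF3B1, the largest subunit and a gene often mutated in blood cancers, gave 0.04, 0.39 and -0.32 on one probe and -0.02, 0.06 and 0.14 on the other.

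Among the Sm proteins only SNRPD1 was called. It read 7.46 and 7.27 in the 12 h control of Oci-Ly-2 and 6.78 and 6.63 with artesunate, a fall of 0.66 (SE 0.13, adjusted p = 0.00336). In BL-41 it read 7.75 and 7.70 against 7.11 and 7.30 (adjusted p = 0.0305), and in SU-DHL-4 8.15 and 8.16 against 7.77 and 7.95, without overlap in any line. The Oci-Ly-2 call was lost when any 1 of its 4 arrays was left out (adjusted p 0.0123 to 0.0663), with median scaling (adjusted p = 0.0162) or with the processed values, where the change was -0.41 and under the fold threshold. SNRPD3, another ring subunit, read 7.56 and 7.82 in the 12 h control and 7.55 and 7.04 with artesunate in BL-41, 7.56 and 7.28 against 7.16 and 6.95 in SU-DHL-4, and 7.52 and 7.85 against 7.08 and 6.89 in Oci-Ly-2. Its changes were -0.40 (-0.14 without BL-41 artesunate replicate 3), -0.37 and -0.70, the last with an adjusted p of 0.0381, and the mean of -0.49 (adjusted p = 0.00536) was under the fold threshold. SNRPB, which encodes SmB, had the smallest mean change among the brighter members. On ILMN_1799103 it read 11.51 and 11.39 against 11.47 and 11.38 in BL-41, 11.51 and 11.45 against 11.51 and 11.55 in SU-DHL-4, and 11.31 and 11.40 against 11.38 and 11.27 in Oci-Ly-2. The arrays with and without artesunate overlapped in Oci-Ly-2 and BL-41, and the mean change over the 3 lines was 0.00 (95% interval -0.15 to 0.15). The 6 probes of SNRPA, SNRPA1, SNRPB2 and SNRPC, proteins of the U1 and U2 particles alone, lay between -0.29 and 0.13 with none called.

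None of the 11 probes of PRPF genes was called in a line at 12 h. PRPF4, a protein of the tri-snRNP, had the largest mean change of them. It read 9.36 and 9.44 in the 12 h control and 9.06 and 9.13 with artesunate in BL-41, 9.29 and 9.40 against 9.0 and 8.86 in SU-DHL-4, and 9.30 and 9.26 against 8.98 and 9.05 in Oci-Ly-2. The artesunate arrays were lower in every line, and the mean change of -0.33 (SE 0.071, adjusted p = 0.00268) was under the fold threshold. PRPF19, the ubiquitin ligase at the core of the PRP19 complex, gave 0.35, 0.15 and 0.33, with a mean of 0.28 (SE 0.07, adjusted p = 0.00986), also under the fold threshold. PRPF8, the scaffold of the catalytic centre, lay between 0.04 and 0.19 in the 3 lines.

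**Figure D3:**
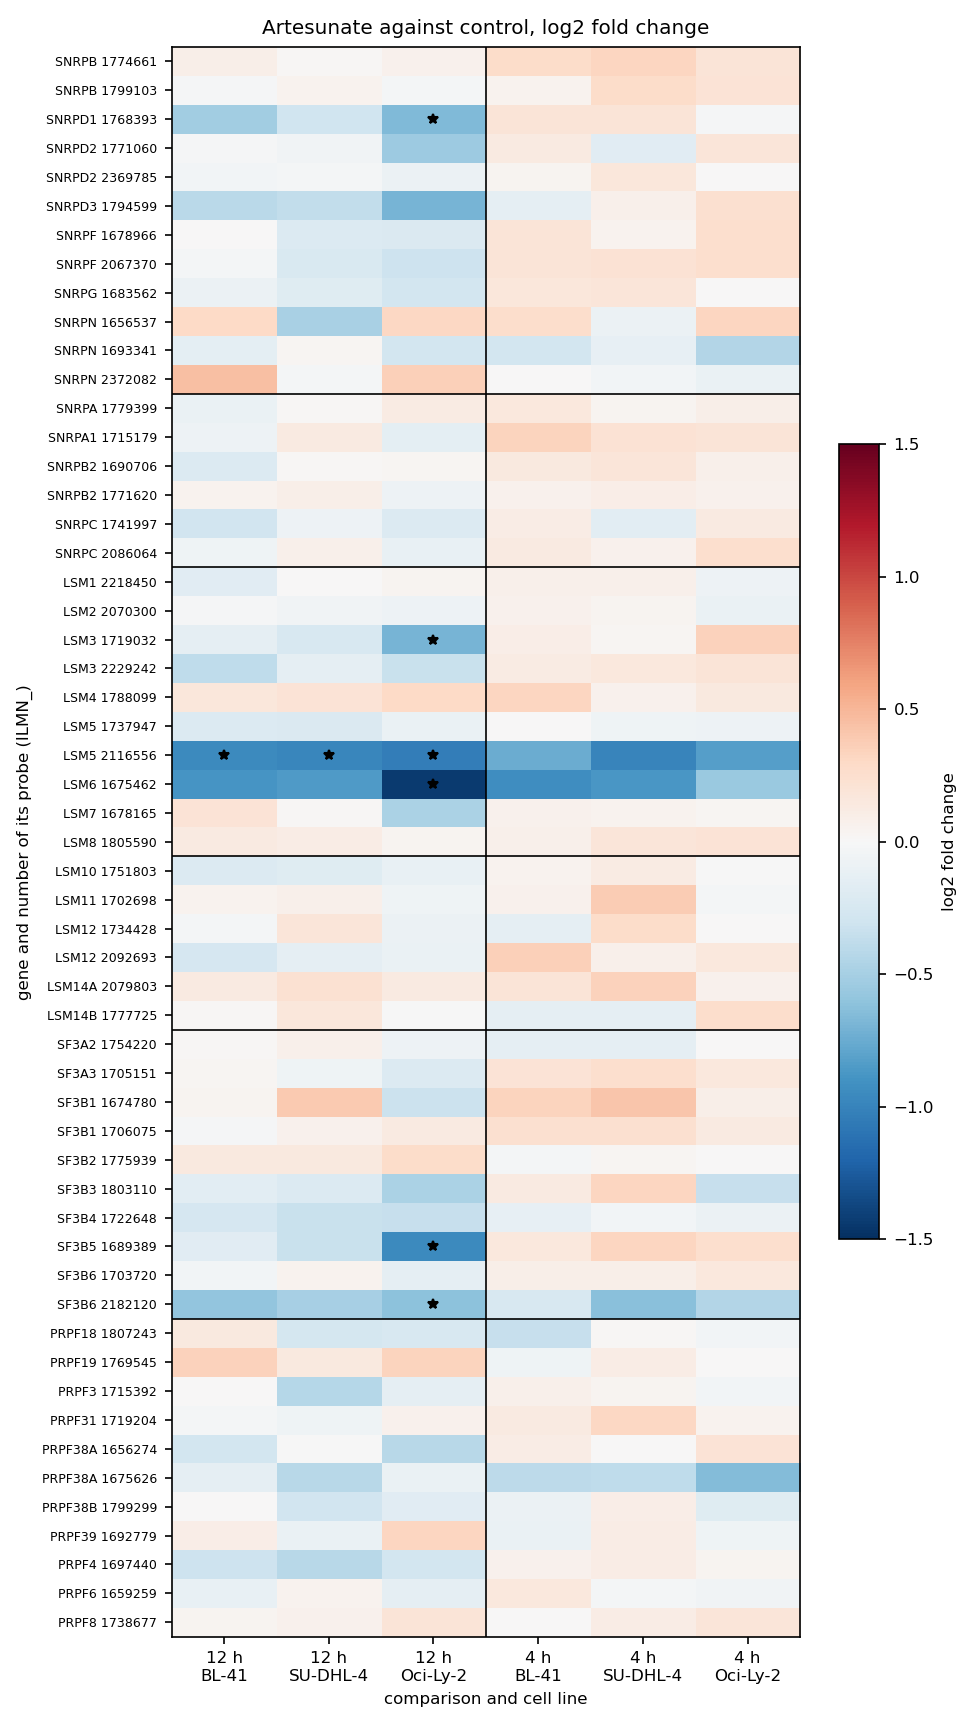
Log2 fold change (colour, from -1.5 to 1.5) of the 55 member probes (rows, grouped by complex or protein family) after 12 h and 4 h with artesunate in the 3 cell lines (columns), with stars on called changes. Rows blue at both times are LSM5 on ILMN_2116556, LSM6 and SF3B6 on ILMN_2182120, the last pale in BL-41 at 4 h. PRPF38A on ILMN_1675626 is blue at 4 h, and most other rows are pale.

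Of the 42 genes, 12 had more than 1 tested probe. The mean 12 h changes of the probes of 1 gene differed by a median of 0.115, and by over 0.5 in 2 genes, LSM5 (0.82) and SF3B6 (0.53). In both, the probe that was called had the lower signal, with a mean log2 signal of 6.84 beside 11.37 for LSM5 and 8.57 beside 11.39 for SF3B6. Whether these probes report different transcripts was not tested.

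After 4 h with artesunate no member was called against the 0 h control, while 0, 0.056% and 0% of all probes were called in the 3 lines (limma). At an unadjusted p under 0.05 there were 6, 9 and 5 members, of which 4 were lower in each line, beside 8.24%, 10.8% and 7.52% of all probes. LSM5 on ILMN_2116556 had the smallest adjusted p in SU-DHL-4, where it read 7.01 and 7.07 at 0 h and 5.92 and 6.18 at 4 h (-0.99, adjusted p = 0.0159). With the replicate number as a block it was the 1 member called in SU-DHL-4 (adjusted p = 0.00495), and 0 were called in the other lines. It gave -0.75 (adjusted p = 0.0815) in BL-41 and -0.83 (adjusted p = 0.108) in Oci-Ly-2. LSM6 gave -0.93, -0.87 and -0.56 with adjusted p of 0.0725, 0.0692 and 0.488, and SF3B6 on ILMN_2182120 gave -0.24, -0.63 and -0.44. For these 3 probes, named because of their 12 h changes, both 4 h arrays were below both 0 h arrays in every line. The share of all probes that did so at 4 h was not counted. The other LSM5 probe, ILMN_1737947, gave 0.00317, -0.0615 and -0.0825 at 4 h. The other SF3B6 probe, ILMN_1703720, gave 0.0942, 0.091 and 0.161. SF3B5, SNRPD1 and LSM3 on ILMN_1719032 gave 4 h changes between -0.02 and 0.34. PRPF38A, a factor that joins the spliceosome before its activation, gave -0.39, -0.38 and -0.65 on ILMN_1675626 at 4 h and -0.14, -0.42 and -0.10 at 12 h. On its brighter probe of the same reference transcript, ILMN_1656274, the 4 h changes were 0.11, 0.00562 and 0.2. The member medians at 4 h were 0.0776, 0.0834 and 0.0465, above the medians of 0.0178, 0.0267 and 0.00607 over all probes. Across the 55 members, the 4 h and 12 h changes of a line correlated at r = 0.50, 0.666 and 0.341, against 0.154, 0.192 and 0.121 across all probes. Over the 49 members not called at 12 h, r was 0.0169, 0.365 and 0.0439. These correlations are across probes of arrays normalized together, and genes are not independent replicates.

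Between the untreated cells of 0 h and 12 h, 0 members were called in any line, against 0.004%, 0% and 0.00799% of all probes. At an unadjusted p under 0.05, 2, 1 and 1 members differed, each higher at 12 h, beside 5.68%, 9.43% and 4.94% of all probes.

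The 12 h responses of the lines were compared directly. No member was called, against 0.12% of all probes for Oci-Ly-2 minus BL-41, 0.064% for SU-DHL-4 minus BL-41 and 0.02% for Oci-Ly-2 minus SU-DHL-4, so that the calls made in Oci-Ly-2 alone were not shown to be particular to it. At an unadjusted p under 0.05 there were 3, 2 and 5 members in these differences, beside 6.28%, 6.72% and 7.59% of all probes. The response of SF3B5 was lower in Oci-Ly-2 than in BL-41 by 0.78 (95% interval -1.24 to -0.33, adjusted p = 0.261) and that of LSM7 by 0.68 (95% interval -1.07 to -0.29, adjusted p = 0.259).

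Untreated cell lines were compared over their 4 control arrays each, given below as 2 values at 0 h and 2 at 12 h. SNRPN, PRPF3, SF3B4, SNRPA1, LSM1 and PRPF8 differed most. SU-DHL-4 against BL-41 gave 3 member probes called higher and 10 lower, against 9.73% and 9.64% of all probes. Oci-Ly-2 against BL-41 gave 1 higher and 4 lower, against 9.75% and 9.55%. Oci-Ly-2 against SU-DHL-4 gave 8 higher and 3 lower, against 9.83% and 9.61%. The cell line accounted for a median of 41.7% of the sum of squares of a member over the 24 arrays and the condition for 15.6%. Over all probes these medians were 28.4% and 11.5%. Replicate arrays accounted for a median of 17.8% in members and 27.7% over all probes, and the median within-group SD was 0.133 and 0.185. A probe with a smaller replicate share has more left for the other shares. The condition accounted for over 50% in 10 members (18.2%, against 5.01% of all probes), led by LSM6 (81.6%), SF3B6 on ILMN_2182120 (80.9%), PRPF4 (76.1%) and LSM5 on ILMN_2116556 (75.2%).

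SNRPN encodes SmN, which is close to SmB in sequence, from an imprinted locus. Its 3 probes were near background in SU-DHL-4 and high in the other 2 lines. On ILMN_2372082 the control arrays read 8.76, 8.79, 8.72 and 8.77 in BL-41 and 9.05, 8.80, 9.03 and 8.86 in Oci-Ly-2. The 4 arrays of SU-DHL-4, none of which detected it, read 4.32, 4.35, 4.33 and 4.28. The gene shares its transcript with SNURF, and which product each probe reports was not tested. Against the detection limit of the SU-DHL-4 arrays, the BL-41 signal was at least 15.2-fold higher (adjusted p = 6.22e-18). In Oci-Ly-2 it was higher by at least 17.2-fold (adjusted p = 3.39e-18). ILMN_1656537, detected on 2 of the 4 control arrays of SU-DHL-4, gave -3.51 for SU-DHL-4 against BL-41, and ILMN_1693341, detected on 1, gave -2.63. BL-41 and Oci-Ly-2 differed by 0.18 or less on 2 of these probes and by 0.29 on the other, none of it called. At 12 h with artesunate ILMN_2372082 read 9.36 and 9.04 in BL-41 and 9.17 and 9.43 in Oci-Ly-2, changes of 0.45 (adjusted p = 0.0938) and 0.36 that did not pass.

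PRPF3 and SF3B4, of the tri-snRNP and of SF3B, were higher in BL-41 than in the other lines. PRPF3 read 10.29, 10.07, 10.28 and 10.19 in BL-41, 9.05, 9.01, 8.96 and 9.02 in Oci-Ly-2 and 8.51, 8.49, 8.62 and 8.30 in SU-DHL-4, so the lines did not overlap. It was lower by 1.73 (SE 0.11, adjusted p = 1.29e-10) in SU-DHL-4, by 1.19 (adjusted p = 3.36e-08) in Oci-Ly-2, and these 2 lines differed by 0.53 (adjusted p = 0.000756), or 0.45 without SU-DHL-4 12 h control replicate 3, which ended that call. SF3B4 read 11.58, 11.43, 11.33 and 11.58 in BL-41, 10.22, 10.16, 9.88 and 10.27 in Oci-Ly-2 and 9.91, 9.95, 9.96 and 9.91 in SU-DHL-4. Its differences from BL-41 were -1.35 (adjusted p = 3.09e-09) and -1.55 (SE 0.11, adjusted p = 3.49e-10), while Oci-Ly-2 and SU-DHL-4 overlapped and differed by 0.20.

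SNRPA1, the U2 A′ protein, was also highest in BL-41, where it read 12.06, 12.31, 12.42 and 12.46. It read 11.46, 11.78, 11.67 and 11.64 in Oci-Ly-2 and 10.86, 11.44, 11.22 and 11.31 in SU-DHL-4, all lower than any array of BL-41. It was lower than in BL-41 by 1.11 (adjusted p = 3.54e-07) in SU-DHL-4 and by 0.67 (adjusted p = 0.000177) in Oci-Ly-2. The last 2 lines differed by 0.43, under the fold threshold, but by 0.51 and 0.58 and past both thresholds without Oci-Ly-2 0 h control replicate 1 or SU-DHL-4 0 h control replicate 3.

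LSM1 was low in Oci-Ly-2, where it read 9.59, 9.57, 9.58 and 9.40, beside 10.80, 10.80, 10.99 and 10.87 in BL-41 and 11.02, 11.23, 11.13 and 11.09 in SU-DHL-4. It was lower in Oci-Ly-2 by 1.33 (SE 0.093, adjusted p = 4.75e-10) and 1.58 (adjusted p = 2.54e-11) than in BL-41 and SU-DHL-4, which did not pass against each other (0.25). PRPF8 was lowest in BL-41, where it read 9.82, 10.08, 9.88 and 9.95, beside 10.61, 10.80, 10.75 and 10.75 in SU-DHL-4. In Oci-Ly-2 it read 10.81, 10.91, 10.87 and 10.89. It was higher than in BL-41 by 0.79 (adjusted p = 1.54e-06) and 0.93 (adjusted p = 1.68e-07), and the last 2 lines differed by 0.14, not called. Of the members that fell after artesunate, SNRPD1 was highest in untreated SU-DHL-4, where it read 8.15, 8.20, 8.15 and 8.16, by 0.60 over BL-41 (adjusted p = 2.44e-05) and by 0.84 over Oci-Ly-2 (adjusted p = 2.99e-07). LSM8 read 7.81, 7.92, 7.69 and 7.74 in SU-DHL-4, beside 7.17, 7.27, 7.40 and 7.22 in BL-41 and 7.17, 7.01, 7.07 and 6.95 in Oci-Ly-2. It was higher in SU-DHL-4 by 0.53 (adjusted p = 0.000195) and 0.74 (adjusted p = 3.35e-06).

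**Figure D4:**
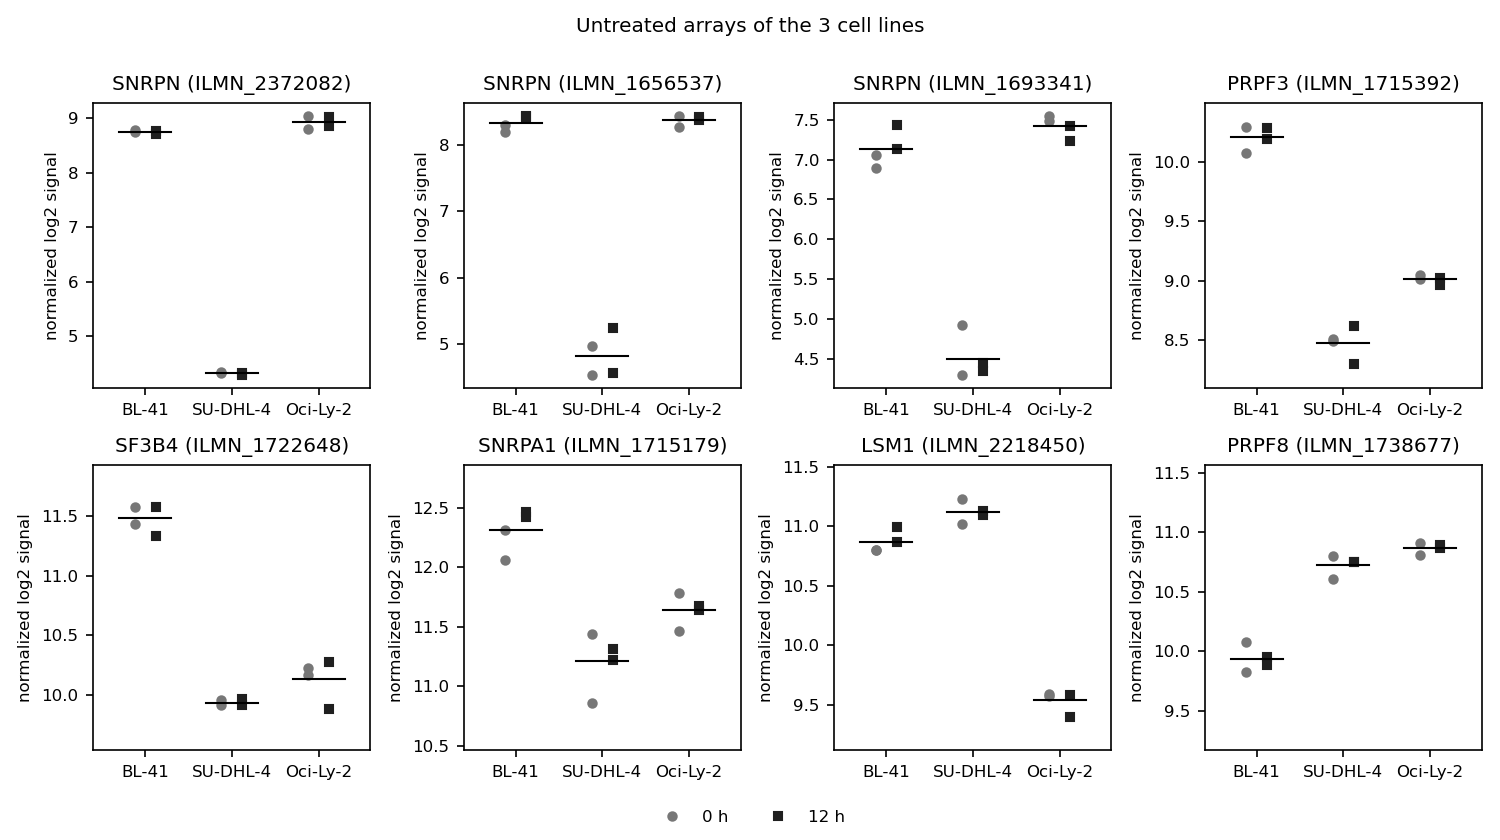
Normalized log2 signal (vertical axis) on the 4 untreated arrays of each cell line (horizontal axis) for 8 probes of 6 genes, circles at 0 h, squares at 12 h and bars at the mean of the 4. The 3 SNRPN probes are near background in SU-DHL-4, LSM1 is low in Oci-Ly-2, and PRPF3, SF3B4 and SNRPA1 are high in BL-41.

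The other splicing genes were followed through 9 lists at 12 h, and most of them were not called. A gene counted as called when any of its probes was called, and the changes given are those of that probe. Medians are over the brightest probe of each gene. No further probe of a called gene was called in a line, and the changes of such probes were not compared. Of 21 tested partners of the U1 and U2 particles, 2, 1 and 3 were called lower in the 3 lines and 0 higher, with medians of -0.109, -0.162 and -0.159. The median over all genes was 0.0147, 0.0151 and 0.0274, with 0.666%, 0.449% and 1.83% of genes called lower and 1.32%, 0.806% and 2.38% called higher. LUC7L3, a U1-associated protein, fell in all 3 lines, by 0.75, 0.71 and 0.83. PHF5A, a further subunit of the SF3B complex, fell by 0.65 in BL-41 and 0.70 in Oci-Ly-2, with -0.50 in SU-DHL-4 (adjusted p = 0.0472), and SMNDC1, a splicing factor of the survival motor neuron family, fell by 0.66 in Oci-Ly-2. Among 18 SR proteins and kinases, SRSF11 fell in every line (0.83, 1.07 and 0.94), TRA2B fell by 0.69 in Oci-Ly-2 and the kinase SRPK2 rose there by 0.98 (adjusted p = 0.00222). In BL-41 and SU-DHL-4, TRA2B gave -0.11 and 0.27 and SRPK2 gave 0.61 and 0.65, none of them called. Of 28 hnRNP genes, HNRNPC fell by 0.92 and HNRNPH3 by 0.68 in Oci-Ly-2, where HNRNPDL rose by 0.65. In BL-41 and SU-DHL-4 none of these was called. There HNRNPC gave -0.65 and -0.89, HNRNPH3 -0.28 and -0.04, and HNRNPDL 0.51 and 0.64.

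Of 21 genes for assembly of Sm rings and import of the particles, GEMIN6 and GEMIN5 of the SMN complex fell in Oci-Ly-2, by 1.03 (adjusted p = 0.000158) and 0.73. In BL-41 and SU-DHL-4, GEMIN6 gave -0.24 and -0.58 and GEMIN5 gave 0.07 and -0.69, none of them called. RNPC3, 1 of 10 genes of the minor spliceosome, fell by 0.59 in BL-41 and 0.68 in Oci-Ly-2 with -0.02 in SU-DHL-4. In the PRP19 and catalytic lists, 1 of 32 genes was called, BUD31, which rose by 0.73 in Oci-Ly-2, and of 9 exon junction genes PNN fell by 0.65 there. In BL-41 and SU-DHL-4, BUD31 gave 0.4 and 0.35 and PNN gave -0.31 and -0.31, none of them called. None of 15 partners of the U5 particle and tri-snRNP and none of 9 decapping partners of the cytoplasmic LSm ring was called in a line (limma, 12 h).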

How the data were processed

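Total RNA of 24 samples was hybridised to Illumina HumanHT-12 v4 arrays. The authors deposited non-normalized signal intensity values and a detection p-value per probe and array, and processed intensity values, whose normalization was not given in the sources used here. Quantile normalization of the signals without background subtraction gave these processed values to within 0.0207 (log2). Here the non-normalized signals were corrected with limma's neqc (limma 3.58.1, R 4.3.3, offset 16, with the negative controls' level taken from the detection p-values), quantile normalized and put on the log2 scale. The annotation gave 1 symbol for 30112 of 47319 probes, several for 8 and none for 17199. A single limma model with 12 group means gave 12 residual and 7.42 prior degrees of freedom, and was tested on simulated data. A separate model took the cell line as the replicate. Members and lists were chosen with earlier results of these data known. Values per array are given for each member called at 12 h and the 8 with the largest mean change. They are also given for the bright member with the smallest mean 12 h change and the 6 genes with the largest untreated differences. Up to 6 members called in each other comparison were added. Any member may be named by its role, with up to 3 called genes per direction of other lists. A probe undetected in 1 group has a lower bound, the brighter mean against the lowest detected signal of each dim array. Alternatives were the processed values, median scaling, other filters and thresholds, array weights, a replicate block, other samples or references, and leaving out arrays.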

Additional observations from a re-analysis of the deposited data

Results flagged for a closer look

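In 51 sets of 4 untreated arrays of a cell line, 1 for each described probe and line, 2 sets held an array that stood far from the other 3, and chance alone gives about 1 in 20. Both were in Oci-Ly-2 and on the same array, replicate 3 of the 12 h control. LSM1 read 9.40 on it and 9.57 to 9.59 on the other 3 arrays. LSM6 read 6.68 on it and 6.41 to 6.45 on the other 3. Without this array the 12 h change of LSM6 in Oci-Ly-2 was -1.31 (adjusted p = 0.0103, limma), and LSM1 was lower in Oci-Ly-2 than in BL-41 in every fit that left out 1 array (-1.37 to -1.28).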

How the results depend on the processing

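No described change reversed its direction under any alternative in which it was called. A change that was not called could cross 0. For SNRPB on ILMN_1799103 at 12 h in BL-41 it was -0.0811 to 0.0349 when 1 array was left out. At 12 h the number of called members in BL-41 was 1 as reported and became 3 without the filter on low signals, 2 with a stricter one, with array weights or with both controls as the reference, 4 at an adjusted p under 0.05 and 0 with the line fitted alone. In SU-DHL-4 it went from 1 to 0 with median scaling or the line fitted alone, 2 at an adjusted p under 0.05 and 3 with both controls as the reference. In Oci-Ly-2 it went from 6 to 2 with the line fitted alone, 4 with median scaling and 5 with the processed values. The mean over the lines went from 3 to 1 with the processed values, and the fit with the cell line as the replicate from 2 to 1 with the processed values, 0 with no filter and 4 with both controls. Leaving out 1 array gave 0 in BL-41, 0 to 1 in SU-DHL-4, 0 to 3 in Oci-Ly-2 and 3 to 6 for the mean, and leaving out 1 line gave 0 to 2 with the line as the replicate. These fits hold fewer arrays, and a lone array is assumed to vary like the other groups. At 4 h in SU-DHL-4 the count went from 0 to 1 with the processed values, the replicate block or both controls, and to 2 at an adjusted p under 0.05. Untreated, SU-DHL-4 against BL-41 went from 13 to 8 with the processed values, and Oci-Ly-2 against SU-DHL-4 from 11 to 7 with those or with the 0 h control as the only untreated group. Without 1 array the untreated counts were 11 to 14, 10 to 13 and, for Oci-Ly-2 against BL-41 with 5 as reported, 5 to 6. Fitted alone, the calls lost were LSM5 in BL-41 and SU-DHL-4 and LSM3, SF3B5, SF3B6 and SNRPD1 in Oci-Ly-2 (adjusted p 0.0117 to 0.0719). Apart from the fits with fewer arrays, the cause was not tested.

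The replicate numbers come from d1 and d3 in the sample titles, which do not say what d stands for. The study's text describes its replicates as technical. The deviations of same-numbered arrays in the 12 h groups correlated at -0.14, 0.12 and 0.098 in the 3 lines, those of the 12 h and 0 h controls at 0.13, 0.097 and 0.11, and those of the 4 h and 0 h arrays at 0.14, 0.28 and 0.16. They were over 0.1 in every line only for 4 h against 0 h, a hint from the data, and the numbers were not taken as pairs. With the number as a block the counts at 12 h were 1, 1 and 6, as without it, and the block changed no count of called members but that at 4 h in SU-DHL-4. Crossing the numbers in BL-41, chosen after seeing the data, gave 2. Median scaling took the median of all probes from -0.0134 to 0.247 for untreated SU-DHL-4 against BL-41, and at 12 h to 0.0674 in BL-41 and -0.125 in Oci-Ly-2, while the member medians became -0.114 and -0.166. The number of arrays limits the precision throughout.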

Other observations

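The members that differed most between untreated lines were set beside the 10 protein-coding genes on each side of them in the RefSeq order of GRCh38.p14, a comparison chosen after the values were seen. Of 14 tested neighbours of PRPF3 on chromosome 1, 9 were called lower in SU-DHL-4 than in BL-41 and 9 in Oci-Ly-2, and 0 higher, while 12% and 11.7% of all genes were called lower. SF3B4 lies 11 genes away on the same chromosome, so the windows overlap, and 3 and 5 of its 13 neighbours were lower. Of 9 neighbours of SNRPA1 on chromosome 15, 4 and 5 were lower. Of 15 neighbours of LSM1 on chromosome 8, 9 were called lower and 1 higher in Oci-Ly-2 than in BL-41, and likewise 9 and 1 than in SU-DHL-4, where 11.9% of genes were lower. Of 12 neighbours of PRPF8 on chromosome 17, 6 were higher than in BL-41 in each of the other lines, where 12.7% and 13% of genes were. Around SNRPN on chromosome 15, 2 of 9 neighbours were lower in SU-DHL-4 than in BL-41. Each gene is represented by its brightest probe.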
